A study of Mus musculus with 4 samples.

Results

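The genes described here carry a cell through the end of its cycle: they condense the chromosomes, build the spindle, attach and separate the chromatids and divide the cytoplasm. They are 48 named G2 and M phase genes, of which 47 had a probe set with their symbol alone on the array, out of 19938 genes named in that way. Ccnb1, the gene of cyclin B1, is the remaining gene and is unnamed here. Their levels were read in 4 brain regions of mouse embryos at embryonic day 17.5, namely cerebellum, olfactory bulb, pontine nucleus and superior colliculus. All embryos were of the outbred ICR stock, and no other treatment or genotype is given. Each region was 1 Affymetrix array of pooled tissue, from 13 mice (cerebellum), 14 mice (olfactory bulb), 15 mice (pontine nucleus) or 16 mice (superior colliculus). Since a region is 1 array, every difference is given without an SD or test, and region and pooled preparation cannot be told apart.

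Transcripts of most of these genes are made late in the cycle of a dividing cell and are removed when it divides or leaves the cycle, so in a tissue they follow the share of cells that are dividing. In the late embryonic cerebellum the dividing cells include the granule cell precursors of the external granular layer and the glial progenitors around the ventricle. The olfactory bulb receives young interneurons from the forebrain, some of which still divide. Pontine neurons reach their nucleus after migrating away from the rhombic lip, and most neurons of the superior colliculus are born before this age. In such bulk tissue, fewer cells of a type and less RNA per cell cannot be told apart.

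The promoters of late cell cycle genes are known for a short element, the cell cycle genes homology region (CHR, core TTTGAA), bound by the DREAM complex in resting cells and by MuvB with B-Myb or FoxM1 in dividing cells. Close by they often carry CCAAT, the box bound by NF-Y. The sequences that follow were chosen to show these letters in genes of separate roles: cyclin B2, the kinases Cdk1 and Plk1, the ubiquitin-conjugating enzyme Ube2c and the topoisomerase Top2a. Each runs from 110 bases before the gene start through the first 20 bases of the gene, 5′ to 3′ on the gene's own strand, from RefSeq, build GRCm38.p6. Capitals mark TTTGAA or CCAAT read on either strand, so that TTCAAA and ATTGG are the same motifs on the other strand.
Ccnb2, chr9:70421535-70421664, minus strand: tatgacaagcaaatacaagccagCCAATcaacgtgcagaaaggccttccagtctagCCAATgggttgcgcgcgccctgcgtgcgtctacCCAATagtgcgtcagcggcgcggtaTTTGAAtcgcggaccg
Cdk1, chr10:69352893-69353022, minus strand: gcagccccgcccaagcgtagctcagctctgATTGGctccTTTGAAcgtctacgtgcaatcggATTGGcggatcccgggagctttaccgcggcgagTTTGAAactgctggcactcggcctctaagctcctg
Plk1, chr7:122159325-122159454, plus strand: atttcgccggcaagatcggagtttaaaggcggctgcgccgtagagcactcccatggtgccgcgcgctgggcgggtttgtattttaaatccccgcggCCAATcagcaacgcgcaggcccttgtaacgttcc
Ube2c, chr2:164769819-164769948, plus strand: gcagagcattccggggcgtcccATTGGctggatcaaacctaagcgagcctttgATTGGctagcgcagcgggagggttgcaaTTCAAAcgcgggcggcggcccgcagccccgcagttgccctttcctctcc
Top2a, chr11:99024170-99024299, minus strand: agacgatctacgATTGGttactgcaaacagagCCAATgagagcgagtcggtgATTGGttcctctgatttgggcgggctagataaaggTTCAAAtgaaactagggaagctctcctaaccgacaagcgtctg

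In Ccnb2 a run of CCAAT boxes leads to a TTTGAA that begins 4 bases after the first base of the gene. In Cdk1, Ube2c and Top2a the last TTTGAA begins 15, 29 and 23 bases before it. That of Plk1 begins 30 bases after it and so lies outside the printed window.

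The 47 genes shared an order of the regions. Of the 47, 43 had their levels in the order cerebellum, olfactory bulb, pontine nucleus, superior colliculus from high to low. Among all named genes 5.21% had that order, and 4.62% of the 10059 genes whose mean level exceeded 8.56, the midpoint of gene levels. The cerebellum held the highest level for 46 genes (28.7% of all named genes, and 16.7% of those with a mean level above 8.56) and the superior colliculus the lowest for 44 (21.7%). Values are log2 array signals, so a difference of 1 is a 2-fold change.

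**Figure D1:**
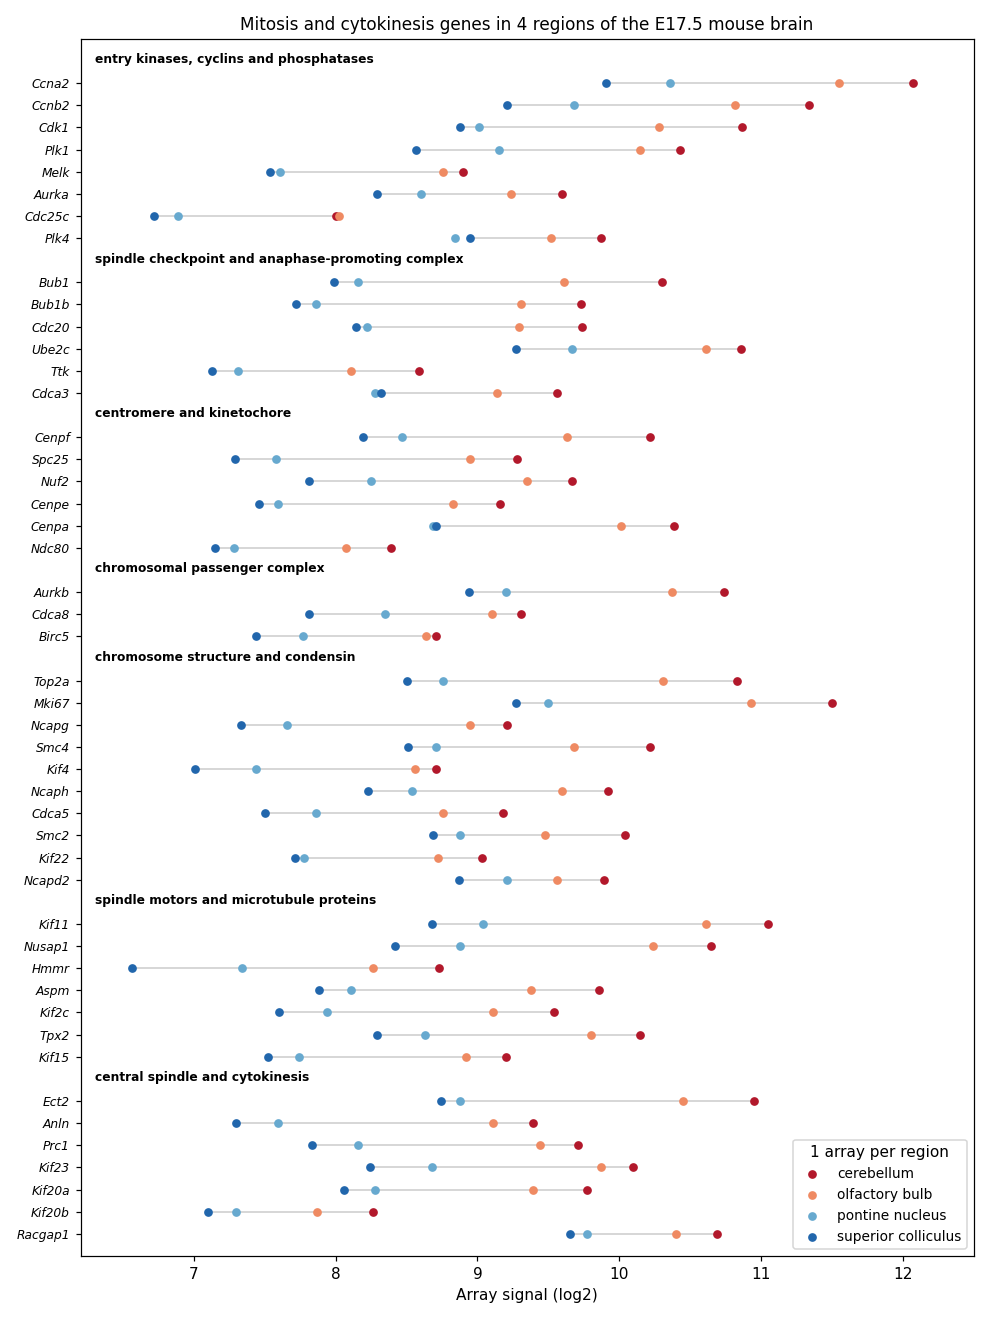
Log2 array signal of each of the 47 genes (horizontal axis) in the 4 regions, 1 point per array, with genes grouped by role and sorted within a group by the cerebellum minus superior colliculus difference. The cerebellum lies farthest right for 46 genes and the superior colliculus farthest left for 44.

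The cerebellum read higher than the superior colliculus for all 47 genes (52.6% of all named genes), with a median difference of 1.71 log2 units, or 3.27-fold, against 0.02 over all named genes. At least 1 log2 unit separated the 2 regions for 46 of the 47, while 1.88% of all named genes, and 2.27% of those with a mean level above 8.56, were that much higher in the cerebellum. Differences reached from 0.92 for Plk4 to 2.37 for Kif11. Between the cerebellum and the pontine nucleus the median was 1.49, and 42 genes passed 1 log2 unit, against 2.72% of all named genes. Cdca8, Kif20b, Ncapd2, Birc5 and Racgap1 did not. Kif20b read 7.30 in the pontine nucleus, a level near background, so its difference of 0.96 is a lower bound.

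The olfactory bulb lay on the side of the cerebellum. It exceeded the superior colliculus by a median of 1.40, with 38 genes past 1 log2 unit (1.78% of all named genes), and the pontine nucleus by a median of 1.14, with 31 genes past it (3.16%). No gene differed by 1 log2 unit between the cerebellum and the olfactory bulb, where 1.23% of all named genes were that much higher and 1.5% that much lower in the cerebellum. None did so between pontine nucleus and superior colliculus either, where 1.06% of all named genes were that much higher and 2.49% that much lower in the pontine nucleus.

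For all 47 genes the fall from the olfactory bulb to the pontine nucleus was the largest of the 3 steps in the order. With a rise counted as a negative fall, that held for 41.8% of all named genes, whatever their order of regions. As a share of the whole drop between the cerebellum and the superior colliculus that fall had a median of 64.0%, from 34.3% for Ncapd2 to 88.3% for Cdc25c. The share of Cdc25c is uncertain, since it read near background in the pontine nucleus and the superior colliculus, at 6.89 and 6.72. The step between the cerebellum and the olfactory bulb took a median of 22.2% and that between pontine nucleus and superior colliculus 14.1%.

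The outer steps were smaller than the middle one, and were also set against the noise of genes taken as not expressed. Brain tissue should not express vomeronasal receptors or beta defensins, and 207 of these genes served as a background. In them the cerebellum minus olfactory bulb difference had an SD of 0.193 and a median of 0.12. The 47 genes had a median of 0.37 there, 46 of them above 0 (50.8% of all named genes). Counted from 0 and not from the background median, 43 exceeded the background SD. The background's 95th percentile of 0.377 was exceeded by 23. The pontine nucleus minus superior colliculus difference had a median of 0.26, with 44 genes above 0 (44.6% of all named genes), against a background SD of 0.184. There 32 genes exceeded that SD and 25 the background's 95th percentile of 0.258. In contrast, 46 of 47 passed the background's 95th percentile of 0.394 between the olfactory bulb and the pontine nucleus, and all 47 passed that of 0.347 between the cerebellum and the superior colliculus. The share of all named genes past these cutoffs was not counted. The upper quartile of all named genes was 0.14 for cerebellum minus olfactory bulb and 0.12 for pontine nucleus minus superior colliculus. It was 0.21 for olfactory bulb minus pontine nucleus and 0.16 for cerebellum minus superior colliculus. The background set describes probe noise at low signal on these arrays and not the spread between animals or dissections. Its median level was 5.19, below every level of the 47 genes, so the noise at their levels was not measured. In that set 9 genes, or 4.35%, had the regions in the same order.

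**Figure D2:**
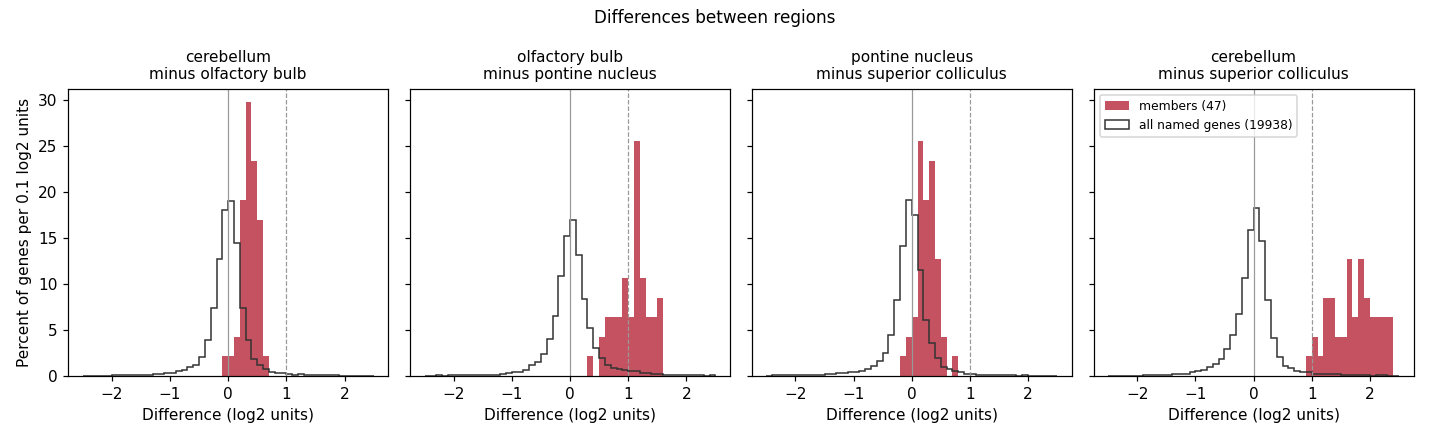
Percent of genes per 0.1 log2 units of difference for the 47 genes (filled) and all 19938 named genes (outline) in 4 pairs of regions; the dashed line marks 1 log2 unit. The genes centre at 0.37, 1.14, 0.26 and 1.71, and all named genes centre near 0 in each panel.

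Entry into mitosis is driven by Cdk1, the kinase bound by the A and B type cyclins. It read 10.87 in cerebellum, 10.28 in olfactory bulb, 9.01 in pontine nucleus and 8.88 in superior colliculus. Its partner Ccna2, cyclin A2, which also acts in S phase, read 12.07, 11.55, 10.36 and 9.91 in the same order of regions, 4.47-fold higher in the cerebellum than in the superior colliculus. Ccnb2, cyclin B2, read 11.34, 10.82, 9.68 and 9.21. For each of these the cerebellum and the olfactory bulb formed a high pair, and the other regions a low pair more than 1 log2 unit below it. Plk1, a kinase of centrosomes, kinetochores and the midbody, read 10.43, 10.15, 9.15 and 8.57, and its pontine level stood 0.58 above that of the superior colliculus. Aurka, the centrosomal Aurora kinase, had a smaller span, the difference between cerebellum and superior colliculus, with 9.60, 9.24, 8.60 and 8.29. Melk, a kinase used as a marker of neural progenitors, read 8.90, 8.76, 7.61 and 7.54, so that the cerebellum and the olfactory bulb nearly coincided and 84.6% of its drop fell between the olfactory bulb and the pontine nucleus.

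The other members of this group departed from the order. Cdc25c, the phosphatase that removes inhibitory phosphates from Cdk1, read 8.0 in cerebellum, 8.02 in olfactory bulb, 6.89 in pontine nucleus and 6.72 in superior colliculus. It was the only gene whose highest level was not in the cerebellum, by 0.02 log2 units, far less than the background SD. Plk4, the kinase of centriole duplication, which begins with S phase, had the narrowest span of the 47 genes. It read 9.87, 9.52, 8.84 and 8.95, with the pontine nucleus lowest, and was 1.89-fold higher in the cerebellum than in the superior colliculus. Over the 8 measured genes of this group the median cerebellum minus superior colliculus difference was 1.61.

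The spindle checkpoint holds back chromatid separation until every kinetochore is attached, and the anaphase-promoting complex then marks securin and cyclin B for destruction. Bub1, a checkpoint kinase, had the widest span of this group, at 10.30 in cerebellum, 9.61 in olfactory bulb, 8.16 in pontine nucleus and 7.99 in superior colliculus. The gap of 0.69 between the cerebellum and the olfactory bulb was the widest among the 47 genes for that pair. Its relative Bub1b read 9.73, 9.31, 7.86 and 7.72, with the same split between a high and a low pair. Ttk, the Mps1 kinase, read 8.59, 8.11, 7.31 and 7.13, and its levels in the pontine nucleus and the superior colliculus lay at or below 7.32, the 95th percentile of the background genes. Cdc20, the activator of the complex at anaphase, read 9.74, 9.29, 8.22 and 8.14, and Ube2c, the enzyme that supplies it with ubiquitin, 10.86, 10.61, 9.67 and 9.27. Cdca3, linked to the destruction of the Cdk1 inhibitor Wee1, read 9.56, 9.14, 8.28 and 8.32 and had its lowest level in the pontine nucleus, by 0.04. All 6 genes of this group exceeded 1 log2 unit between the cerebellum and the superior colliculus, and the median was 1.60.

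At the centromere, Cenpa, the histone variant that marks it, read 10.39 in cerebellum, 10.01 in olfactory bulb, 8.69 in pontine nucleus and 8.71 in superior colliculus. Here too the low pair was out of order, by 0.02. The 3 genes with the pontine nucleus lowest, Plk4, Cdca3 and Cenpa, differed there by 0.02 to 0.11, less than the background SD of 0.184. That SD comes from genes of lower signal. Some genes in the order also differed by less than it, among them Cdk1 by 0.13 and Melk by 0.07. Cenpf, a large kinetochore protein of late G2, read 10.22, 9.63, 8.47 and 8.19, a span of 2.03. The kinesin gene Cenpe read 9.16, 8.83, 7.59 and 7.46. Among subunits of the Ndc80 complex, which grips microtubule ends, Nuf2 differed by 1.86 between the cerebellum and the superior colliculus, Spc25 by at least 1.99 and Ndc80 by at least 1.24. Spc25 in the superior colliculus and Ndc80, at 8.39, 8.07, 7.28 and 7.15, in both low regions lay within the range of the background genes, where a difference is compressed. The median span of the 6 genes was 1.78.

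The chromosomal passenger complex corrects faulty attachments and later moves to the cleavage plane. Its kinase gene Aurkb read 10.74 in cerebellum, 10.37 in olfactory bulb, 9.20 in pontine nucleus and 8.94 in superior colliculus. The genes of its partners had narrower spans. Birc5, or survivin, read 8.71, 8.64, 7.77 and 7.44, with 0.07 between the cerebellum and the olfactory bulb. Cdca8, or borealin, read 9.31, 9.10, 8.35 and 7.81, with a step of 0.54 between pontine nucleus and superior colliculus. The median span of the 3 genes was 1.5.

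Of the genes of chromosome structure, Mki67, whose protein coats mitotic chromosomes and is the usual stain for dividing cells, read 11.50 in cerebellum, 10.93 in olfactory bulb, 9.50 in pontine nucleus and 9.27 in superior colliculus, 4.69-fold higher in the first region than in the last. Top2a, which untangles sister chromatids, read 10.83, 10.31, 8.76 and 8.50, the widest span of the 10 genes of this group at 2.33 log2 units or 5.03-fold. For both genes the high pair and the low pair were set apart by more than 1 log2 unit. A further probe set named for Top2a read 4.10, 4.45, 4.71 and 4.24 in the order of regions, at background, and was not used because the one with the highest mean level stands for a gene. The condensin subunits differed among themselves. Ncapg read 9.21 in cerebellum, 8.95 in olfactory bulb, 7.66 in pontine nucleus and 7.33 in superior colliculus, a span of 1.88. Ncaph had a span of 1.69, and Smc4 and Smc2, the ATPases of the ring, spans of 1.71 and 1.35. Ncapd2 read 9.89, 9.56, 9.21 and 8.87, the smallest span of the group at 1.02, with 3 steps of nearly the same size (0.33, 0.35 and 0.34). Smc2 and Smc4 also serve condensin II, which is present outside mitosis. Cdca5, or sororin, which protects cohesin, had a span of 1.68, and the chromokinesin genes Kif4 and Kif22 spans of 1.70 and 1.32. Between the cerebellum and the olfactory bulb Kif4 differed by 0.15. All 10 genes kept the order, with a median span of 1.70.

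All 7 genes of spindle motors and microtubule proteins kept the order, with a median span of 1.98, and their narrowest span, that of Kif15, was 1.68. Kif11, the Eg5 motor that pushes the spindle poles apart, read 11.05 in cerebellum, 10.61 in olfactory bulb, 9.04 in pontine nucleus and 8.68 in superior colliculus, 5.17-fold higher in the cerebellum than in the superior colliculus. Kif15, a motor with an overlapping task, read 9.20, 8.92, 7.74 and 7.52. Nusap1, a microtubule bundling protein, read 10.65, 10.24, 8.88 and 8.42, and Tpx2, the activator of Aurora A on the spindle, 10.15, 9.80, 8.63 and 8.29. Each showed the same high and low pairs. Hmmr, a hyaluronan receptor that also binds the spindle, read 8.73, 8.26, 7.34 and 6.56, and its step of 0.78 between pontine nucleus and superior colliculus was the widest of the 47 genes for that pair, although its collicular level lay within the range of the background genes. Aspm, a spindle pole protein whose loss in humans causes microcephaly, read 9.86, 9.38, 8.11 and 7.88. Kif2c, a motor that takes microtubules apart at the centromere, had a span of 1.94.

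The 7 genes of the central spindle and of cytokinesis also kept the order, with a median span of 1.86. Ect2, the exchange factor that activates RhoA at the cleavage site, read 10.95 in cerebellum, 10.45 in olfactory bulb, 8.88 in pontine nucleus and 8.74 in superior colliculus. Anln, or anillin, a scaffold of the contractile ring, read 9.39, 9.11, 7.59 and 7.30. With Top2a and Kif11, these were the 4 genes that differed by at least 1.5 log2 units between the olfactory bulb and the pontine nucleus. Prc1, which bundles the midzone microtubules, had a span of 1.88, and the kinesin genes Kif23, Kif20a and Kif20b spans of 1.86, 1.71 and 1.16. Racgap1, the partner of Kif23 in the centralspindlin complex, read 10.69, 10.40, 9.77 and 9.65, a span of 1.04. The genes of the 2 proteins of that complex thus differed by 1.86 and 1.04 between the same arrays.

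Low signals limit some of these spans. In the superior colliculus 8 of the 47 genes read at or below the background's 95th percentile of 7.32. They were Ttk, Cdc25c, Kif20b, Kif4, Ndc80, Spc25, Anln and Hmmr. Array noise aside, their differences to the superior colliculus, that of the pontine nucleus included, are to be read as lower bounds in every rank. Their shares of the whole drop can err either way, because the drop itself is a lower bound. The median cerebellum minus superior colliculus difference was 1.58 for these 8 and 1.80 for the other 39. In the pontine nucleus 4 genes lay that low, namely Ttk, Cdc25c, Kif20b and Ndc80. The differences of the cerebellum and the olfactory bulb to it are lower bounds for these genes too. No gene lay that low in the cerebellum or the olfactory bulb.

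Other genes of mitosis showed a wider range. Of 59 further mitosis genes 56 were measured. Between the cerebellum and the superior colliculus 54 of them were higher in the cerebellum, 33 by at least 1 log2 unit, with a median of 1.25, and 33 had the order of regions given above. Of the 56, 15 read at or below 7.32 in the superior colliculus and 12 in the pontine nucleus, where differences are compressed and an order is uncertain. Sgo1, or shugoshin, a guard of centromeric cohesion, had the widest difference at 2.26, with 9.87 in cerebellum, 8.82 in olfactory bulb, 7.90 in pontine nucleus and 7.61 in superior colliculus. Knl1, a kinetochore scaffold, followed at 2.15 and Cks2, a subunit bound to Cdk1, at 2.13. Cit and Zwint were the exceptions in direction. Cit, citron kinase, which also has a neuronal form, read 9.13, 9.40, 8.19 and 9.60, and Zwint, a kinetochore gene that neurons also express, read 12.39, 12.60, 12.40 and 12.77. In both the superior colliculus was highest.

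Other subunits of the same machines mostly did not follow the order. Such subunits are known to be present outside mitosis too, which was not measured here. Of 24 genes of the anaphase-promoting complex, cohesin and their partners, 2 had the order, against 5.21% of all named genes. None differed by 1 log2 unit between the cerebellum and the superior colliculus in either direction (median 0.13). Of all named genes 1.88% were that much higher and 1.54% that much lower in the cerebellum. Pds5a, a cohesin regulator, had the widest difference at 0.53, and its relative Pds5b lay at the other end at -0.21. The cohesin ring gene Smc3 read 10.54 in cerebellum, 10.51 in olfactory bulb, 10.60 in pontine nucleus and 10.43 in superior colliculus. By comparison, Cdc20 and Ube2c, the cycle-bound partners of the same complex, were 3.03-fold and 3.01-fold higher in the cerebellum than in the superior colliculus.

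Genes of DNA replication, which are made earlier in the cycle, differed in the same direction by less. All 35 measured were higher in the cerebellum than in the superior colliculus, 17 by at least 1 log2 unit, with a median of 0.99 beside 1.71 for the mitosis and cytokinesis genes. The order of regions held for 20 of them. Mcm2, a helicase subunit, had the widest difference at 1.87, and Dnmt1, the maintenance DNA methyltransferase, the narrowest at 0.05. No test of the difference between the lists was possible.

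**Figure D3:**
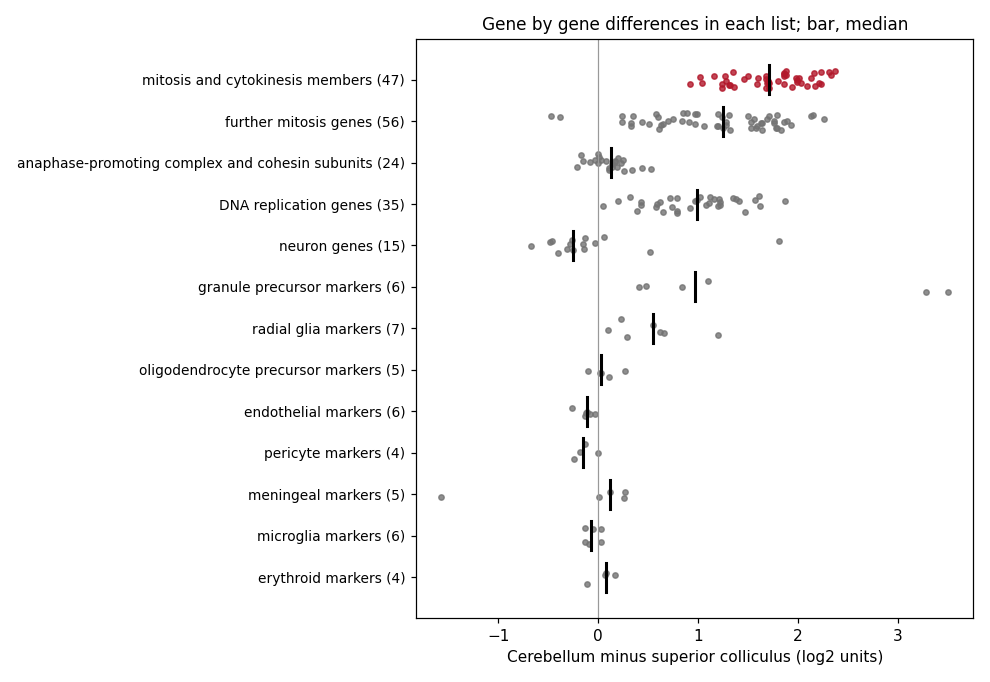
Cerebellum minus superior colliculus difference (log2 units, 1 point per gene, bar at the median) for the 47 mitosis and cytokinesis genes and for each comparison list, with the number of genes in brackets. The medians are 1.71, 1.25 for further mitosis genes, 0.13 for anaphase-promoting complex and cohesin subunits and 0.99 for DNA replication genes; endothelial, pericyte and microglia markers lie close to 0.

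Markers of cell types were read on the same arrays. All markers of each region were highest in their own region: 4 of 4 cerebellar, 4 of 4 bulbar, 3 of 3 pontine and 3 of 3 collicular markers. Radial glia markers moved with the mitosis genes in part. All 7 were higher in the cerebellum than in the superior colliculus, the median being 0.55 and Slc1a3 the widest at 1.20. However, 5 of the 7 were lowest in the pontine nucleus (32.7% of all named genes). The log2 of their summed signal was 15.37 in cerebellum, 15.16 in olfactory bulb, 14.89 in pontine nucleus and 14.94 in superior colliculus. Granule precursor markers were all higher in the cerebellum than in the superior colliculus, by 0.41 to 3.50, with a summed signal of 14.03, 12.70, 14.09 and 13.07 in the order of regions. Barhl1, also counted as a pontine marker, and Zic1, at 13.36 there, carried the pontine sum. The markers differed in their second region: Mfap4, Gli1 and Gli2 were second highest in the olfactory bulb, as the mitosis genes were, at 9.75, 8.55 and 9.0. Atoh1, the defining factor of dividing granule precursors, was at or below the background's 95th percentile in the olfactory bulb and the superior colliculus, at 6.92 and 7.20, against 10.70 in the cerebellum. The part of these cells in the result was not tested.

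Markers of blood and vessel cells did not show the order. Endothelial markers differed by -0.26 to -0.03 between the cerebellum and the superior colliculus, with a summed signal of 11.90, 12.02, 11.96 and 12.01 in the 4 regions. Microglia markers had a median of -0.07 and pericyte markers -0.16. Of the 4 erythroid markers measured, whose median was 0.08, all were lowest in the pontine nucleus (32.7% of all named genes). The summed signal of the erythroid markers was 10.39, 10.60, 10.05 and 10.38. Oligodendrocyte precursor markers had a median of 0.03. They were lower in the olfactory bulb, with medians of 0.65 for cerebellum minus olfactory bulb and -0.36 for olfactory bulb minus pontine nucleus. Of the 5 markers 4 went that way in each pair, and Sox10 the other way. Meningeal markers were all highest in the olfactory bulb (24.3% of all named genes). Their summed signal was 10.45 in cerebellum, 11.62 in olfactory bulb, 10.28 in pontine nucleus and 10.55 in superior colliculus. Dcn, at 7.08, 10.59, 7.28 and 8.65, carried the bulbar sum. For the collagen markers the cerebellum minus olfactory bulb difference was only -0.37 to -0.25. The neuron genes went the other way, with 12 of 15 lower in the cerebellum than in the superior colliculus and a median of -0.25, beside 5718 of the 10059 genes with a mean level above 8.56. The neurofilament genes Nefm and Nefl were among the exceptions, 1.81 and 0.52 higher in the cerebellum. The summed signal of all 15 neuron genes was 16.51, 16.53, 16.74 and 16.65, and Tubb3, neuronal beta tubulin, read 12.38, 12.64, 12.94 and 12.64.

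The promoter letters shown above recurred across the genes. Promoters of 42 of the 48 genes were in the RefSeq table used here, each with 250 bases before the gene start and 50 bases from it on, 1 promoter per gene. Ccna2, Cdc25c, Kif20a, Aurkb, Tpx2 and Smc4 had no entry. TTTGAA on either strand was found in 33 of the 42, or 78.6%, against 18.1% of 27025 promoters of the table and 15.2% of the 15614 that belong to named genes of the array. Within 50 bases of the gene start it was found in 30, or 71.4%, against 4.92% of all promoters. CCAAT on either strand was found in 30 of the 42, or 71.4%, against 37.9% of all promoters, and at least 2 copies in 21, or 50%, against 12.2%. Neighbouring matches of both motifs can share 1 base.

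In 16 of the 42 promoters, or 38.1%, a CCAAT began 20 to 40 bases before a TTTGAA, against 0.918% of all promoters. The range of 20 to 40 bases was picked after values were seen, so these shares are a description only. Such a spacing, 25 bases in Ccnb2, 33 in Cdk1, 28 in Ube2c and 35 in Top2a, can be read in the sequences printed above. The promoters of Birc5, Melk, Ncaph, Nuf2, Nusap1 and Plk4 held neither motif in this window, which says only that these letters are not there. Among the other lists TTTGAA was found in 21 of 47 promoters of further mitosis genes (44.7%), 5 of 30 of DNA replication genes (16.7%), 3 of 20 of anaphase-promoting complex and cohesin subunits (15.0%) and 0 of 9 of neuron genes. CCAAT was found in 68.1%, 63.3%, 50% and 55.6% of them.

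**Figure D4:**
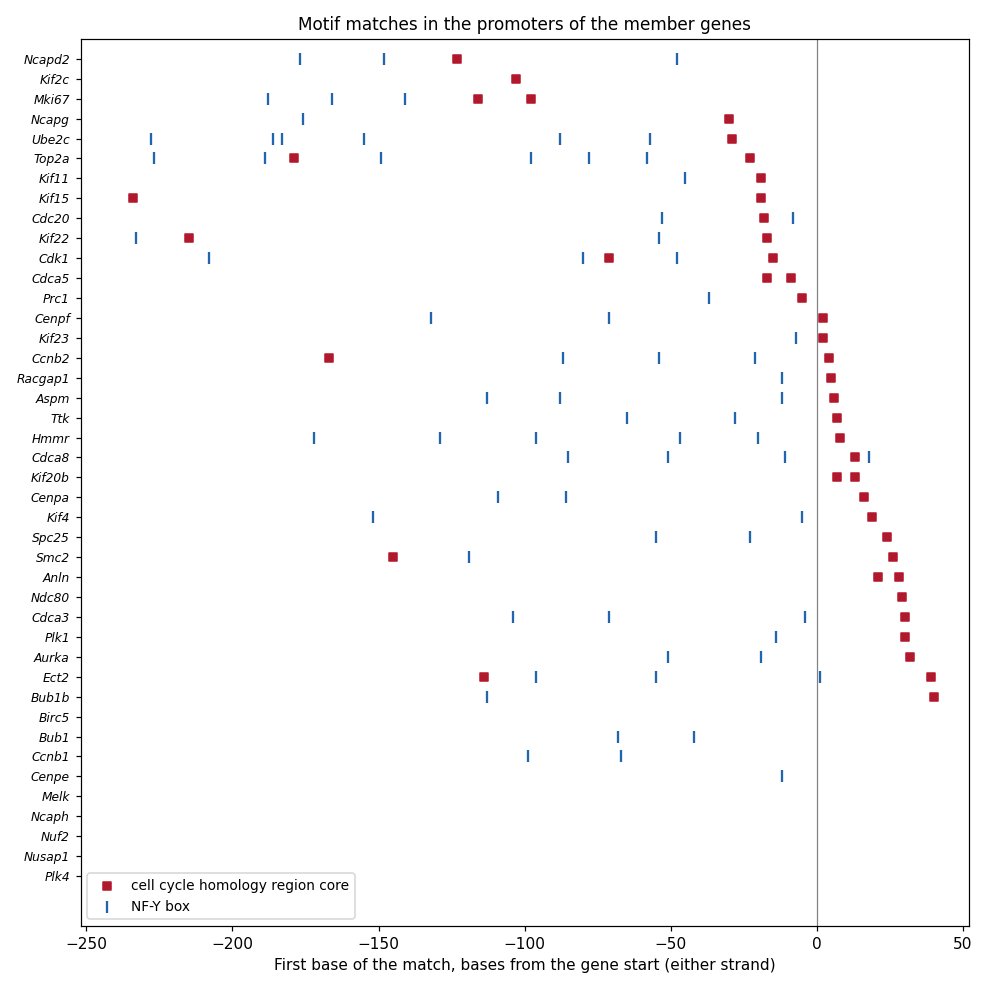
Position of the first base of each match to the cell cycle genes homology region core (squares) and to the NF-Y box (ticks), in bases from the gene start at 0, in the promoters of 42 genes, 1 row per gene. In 30 promoters a square lies within 50 bases of the start, and 6 rows hold no match of either kind.

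The presence of TTTGAA did not divide the genes by their span across regions. The 33 measured genes with it had a median cerebellum minus superior colliculus difference of 1.86, from 1.02 to 2.37. The 8 without it, which were Birc5, Bub1, Cenpe, Melk, Ncaph, Nuf2, Nusap1 and Plk4, had a median of 1.70, from 0.92 to 2.31. Both ranges overlap over nearly their whole length, and the gene with the narrowest span, Plk4, and a gene with one of the widest, Bub1, were both among the 8.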

How the data were processed

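Total RNA of 4 pooled tissue samples was labelled and hybridised to 1 Affymetrix array each, per the labels' protocols. Affymetrix Expression Console was used, per the submitters' processing notes. Its version, its settings and the build were not given in the sources used here. Deposited by the authors, a single table holds 1 value per probe set and array, between 2.43 and 14.57, a range read here as log2 intensity. Column medians lay close together, at 8.07 to 8.13, as after scaling between arrays, which can remove a difference in total RNA. Precision is limited by the 1 array per region.

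Of 35556 probe sets, 21789 had 1 gene symbol in the array's annotation, 1621 had several and were not used, and 12146 had no entry and are unnamed here. By Entrez ID 21698 matched the RefSeq gene table of GRCm38.p6, with 0 changed symbols. A gene with several probe sets is given by that of highest mean. The main counts use no level filter: 44 of the 47 measured genes had their highest level above 8.56, and 31 their mean level.

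No test was made. Genes were counted at a difference of 1 log2 unit, beside the same share of all named genes. The genes, lists and rules were chosen with earlier results of these data known. Genes with all 4 levels are, in each role group, those with the widest and narrowest cerebellum minus superior colliculus difference, those out of order and the best known markers; others, and the motif spacing, were picked after their values were seen. The counting was tested on simulated data. Python 3.11.15, NumPy 2.4.6, pandas 2.3.3 and Matplotlib 3.10.9 were used.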

Additional observations from a re-analysis of the deposited data

How the results depend on the processing

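Scaling (quantile normalization, columns centred on their medians), the choice of probe set (mean of a gene's probe sets, genes with 1 probe set only) and a floor on the highest level kept all 15 counts and medians, counts within 1.5 times and medians within the SD of the background genes. The order of regions held for 42 of 47 genes after quantile normalization, and the scalings moved the median difference of all genes by at most 0.06. A floor on the mean level left 31 genes, of which 30 passed 1 log2 unit between the cerebellum and the superior colliculus, 25 between the olfactory bulb and the superior colliculus, 28 kept the order and 28 were lowest in the superior colliculus; the counts are lower because fewer genes were counted. At 0.5 log2 units 10 genes were higher in the cerebellum than in the olfactory bulb, beside 849 of the 19938 named genes. In the pontine nucleus 3 were that much higher than in the superior colliculus, beside 817 of the 19938 named genes. At 1.5 log2 units 23 genes were higher in the cerebellum than in the pontine nucleus, and in the olfactory bulb 4 were higher than in the pontine nucleus and 21 than in the superior colliculus. At 2 log2 units 12 genes were higher in the cerebellum than in the superior colliculus and 5 than in the pontine nucleus, and in the olfactory bulb 0 were higher than in the pontine nucleus and 0 than in the superior colliculus. All named genes were not counted at 1.5 and 2 log2 units. Signals near background compress differences of dim genes. No paired analysis was possible because each region has 1 array.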

Other observations

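Some genes of the comparison lists broke the likeness of pontine nucleus and superior colliculus; they were picked after their values were seen. Gins1, a subunit of the replicative helicase complex, read 8.72 in cerebellum, 8.60 in olfactory bulb, 8.71 in pontine nucleus and 7.37 in superior colliculus. Cenpj, a centriole assembly gene, read 8.02, 7.98, 8.27 and 7.18 in that order and was highest in the pontine nucleus. Kif18a, a kinesin that damps chromosome movements, read 8.99, 8.84, 8.25 and 7.20. In these 3 genes the pontine nucleus stood 1.34, 1.09 and 1.05 log2 units above the superior colliculus, while the 47 mitosis and cytokinesis genes reached 0.78 there as measured. The collicular levels of Cenpj and Kif18a lay at or below the background's 95th percentile of 7.32, so their differences are lower bounds. Cit went the opposite way, where the pontine level was 8.19 and the collicular level 9.60.

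Outside the cell division lists, 94 named genes had a promoter with CCAAT 20 to 40 bases before TTTGAA. Of these 7, or 7.45%, were at least 1 log2 unit higher in the cerebellum than in the superior colliculus, against 1.38% of 15404 genes without such a promoter. The order of the 4 regions held for 10.6% and 4.71%. Their median cerebellum minus superior colliculus differences were 0.09 and 0.02, so most genes with this spacing did not differ. The spacing was picked after values were seen. This is a description of these arrays with no test, and the lists do not hold every gene of the cell cycle.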
